A study of Mus musculus with 2 samples.

Results

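The 8 mouse genes described here encode enzymes and a cofactor that write, oxidise and excise methylated cytosine: Tdg, Tet1, Tet2, Tet3, Dnmt1, Dnmt3a, Dnmt3b and Dnmt3l. Their loci were examined for peaks of the Tdg protein in E14 cells, a male line of mouse embryonic stem cells, by ChIP-seq of biotin-tagged Tdg. Each locus was a fixed span on the mouse build mm9 that holds the gene, with 10 kb added on each side, and a peak belonged to a locus if at least 1 bp of it lay there. By this rule 81 of the 72970 peaks in the list were members, 62 of them on a gene span and 19 in a flank only. The study held 2 ChIP libraries, one from cells labelled Bio-Tdg (n = 1) and one from cells labelled BirA, the mock (n = 1). Both are E14 cells, and BirA is the bacterial ligase that adds biotin to the tag. Only the peak list of the Bio-Tdg library was analysed here, so no value has a replicate error and no background from the mock stands beside it. The labels give neither the origin of the tagged gene nor its expression relative to the cells' own Tdg, nor the number of clones.

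Cytosine methylation in mammals lies mainly on the dinucleotide CG. Dnmt3a and Dnmt3b, the de novo methyltransferases, place it, Dnmt3l is a cofactor of both without catalytic activity, and Dnmt1 copies the methylation to the new strand after replication. The Tet enzymes oxidise methylcytosine stepwise to hydroxymethyl-, formyl- and carboxylcytosine. Tdg, thymine DNA glycosylase, excises formyl- and carboxylcytosine, and base excision repair then restores an unmethylated cytosine. The loci thus hold the peaks of one enzyme of this cycle at its own gene and at the genes of its partners.

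Promoter sequences of the genes were taken from RefSeq on GRCm38.p6, a later build than that of the peaks. No position was converted between the builds, and the coordinates beside the sequences cannot be set against the peak positions. All 8 genes matched the promoter table by name, chromosome and strand. There were 14 starts in all, 3 each for Dnmt1, Dnmt3a and Dnmt3l and 1 for each other gene. The sequences shown are the 250 bases before a start, in the direction of transcription, with each CG in capitals. Tdg, Tet2, Dnmt3a start 1 and Dnmt3b are shown because a wide peak lay over the start edge, the end of the span on the side where transcription starts. The first starts of Dnmt1 and Dnmt3l are shown for contrast, as starts poor in CG with no peak over the edge, and Dnmt1 start 2 and Dnmt3a start 3 as starts farther into the gene. The other 6 starts are given by their counts. Among them are those of Tet1 and Tet3, with 15 and 17 CG and no peak over the edge either. Whether CG content goes with a peak over the edge was not tested.
Tdg (chr10:82629588-82629837, plus strand): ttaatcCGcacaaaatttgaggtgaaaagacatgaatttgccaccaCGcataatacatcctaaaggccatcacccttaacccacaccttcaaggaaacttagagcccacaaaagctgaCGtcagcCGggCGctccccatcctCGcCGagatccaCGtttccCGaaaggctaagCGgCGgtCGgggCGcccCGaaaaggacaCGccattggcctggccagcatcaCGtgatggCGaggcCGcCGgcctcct
Tet2 (chr3:133544391-133544640, minus strand): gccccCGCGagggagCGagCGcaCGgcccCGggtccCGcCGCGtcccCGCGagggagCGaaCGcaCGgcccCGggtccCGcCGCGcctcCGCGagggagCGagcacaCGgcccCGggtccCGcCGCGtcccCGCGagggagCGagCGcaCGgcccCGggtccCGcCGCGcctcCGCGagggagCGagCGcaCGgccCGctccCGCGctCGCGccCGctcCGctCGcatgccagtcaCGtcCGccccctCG
Dnmt1 start 1 (chr9:20959889-20960138, minus strand): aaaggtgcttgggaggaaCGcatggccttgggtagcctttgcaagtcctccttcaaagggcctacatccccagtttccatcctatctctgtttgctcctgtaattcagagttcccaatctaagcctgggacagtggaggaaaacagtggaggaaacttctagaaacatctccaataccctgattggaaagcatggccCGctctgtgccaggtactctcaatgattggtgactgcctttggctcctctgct
Dnmt1 start 2 (chr9:20952980-20953229, minus strand): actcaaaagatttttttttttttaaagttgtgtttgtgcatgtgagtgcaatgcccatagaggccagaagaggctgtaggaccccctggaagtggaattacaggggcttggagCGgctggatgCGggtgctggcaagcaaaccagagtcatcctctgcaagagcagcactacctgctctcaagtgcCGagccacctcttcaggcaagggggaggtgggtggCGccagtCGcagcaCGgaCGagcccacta
Dnmt3a start 1 (chr12:3806730-3806979, plus strand): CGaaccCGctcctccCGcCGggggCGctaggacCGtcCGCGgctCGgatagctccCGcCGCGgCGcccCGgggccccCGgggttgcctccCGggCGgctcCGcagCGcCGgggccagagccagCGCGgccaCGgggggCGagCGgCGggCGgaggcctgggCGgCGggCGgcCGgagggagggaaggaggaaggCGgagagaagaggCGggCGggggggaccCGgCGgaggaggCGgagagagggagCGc
Dnmt3a start 3 (chr12:3891494-3891743, plus strand): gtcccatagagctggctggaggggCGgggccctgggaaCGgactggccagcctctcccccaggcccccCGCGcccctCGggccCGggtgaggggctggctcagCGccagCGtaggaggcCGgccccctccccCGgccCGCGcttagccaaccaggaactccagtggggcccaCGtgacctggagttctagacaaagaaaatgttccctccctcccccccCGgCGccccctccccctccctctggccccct
Dnmt3b (chr2:153649199-153649448, plus strand): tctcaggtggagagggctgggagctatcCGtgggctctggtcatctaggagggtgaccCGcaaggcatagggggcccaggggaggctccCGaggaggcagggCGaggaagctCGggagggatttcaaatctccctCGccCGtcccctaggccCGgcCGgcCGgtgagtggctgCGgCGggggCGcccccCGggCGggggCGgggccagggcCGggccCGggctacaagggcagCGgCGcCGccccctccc
Dnmt3l start 1 (chr10:78042037-78042286, plus strand): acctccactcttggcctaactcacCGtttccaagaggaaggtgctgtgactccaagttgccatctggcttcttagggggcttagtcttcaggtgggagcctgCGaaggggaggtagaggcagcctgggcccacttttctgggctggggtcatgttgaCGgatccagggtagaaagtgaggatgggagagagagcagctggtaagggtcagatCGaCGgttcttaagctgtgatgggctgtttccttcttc

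The number of CG in these windows ran from 2 to 51, with a median of 16 over the 14 member starts, beside a median of 6 and quartiles of 2 and 16 over all 32851 promoters of the table. Tet2 had the most, 51 CG, more than 99.9% of the promoters. Its ratio of observed to expected CG was 1.19, and 77.9% of its bases equalled the base 42 positions further on, so the sequence is a tandem repeat in large part. Dnmt3a starts 2 and 1 followed with 40 and 38 CG, then Dnmt1 start 3 with 26, while Dnmt3b had 21, Tdg 19, Tet3 17 and Tet1 15. The sparsest windows belonged to Dnmt1 start 1 with 2 CG and to Dnmt3l, whose 3 starts had 5, 4 and 3. Start 2 of Dnmt1 had 7. Start 3 of Dnmt1 lies only 356 bp past start 2, so its window is sequence transcribed from start 2. In the same way 180 bases of the window of Dnmt3a start 2 lie past start 1. The letters GGGCGG, searched on both strands and containing a CG, were found before 9 of the 14 member starts and before 32.7% of all promoters. Of 18 other genes of DNA methylation, demethylation and base excision repair, 14 were in the table. They had 5 to 30 CG before the start with the most and a median of 13 over genes. Xrcc1, a scaffold of repair, had the fewest and Uhrf1, the partner of Dnmt1 at replicated DNA, the most.

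**Figure D1:**
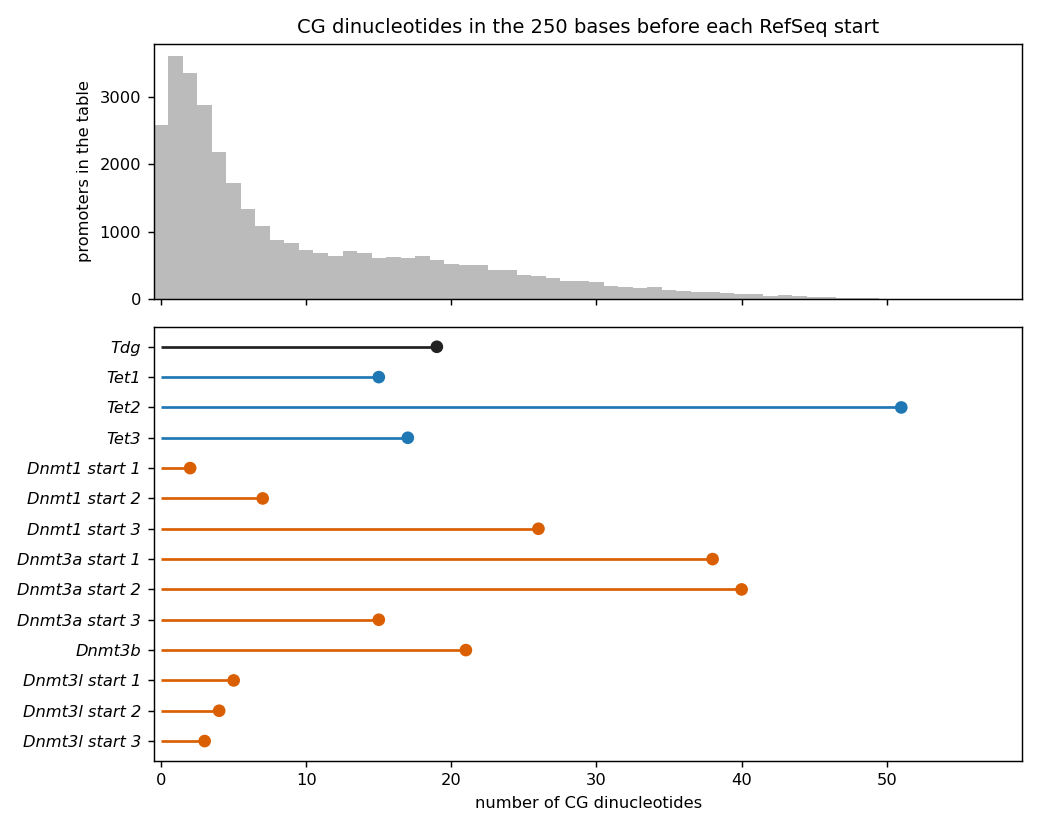
Number of CG dinucleotides (x axis) in the 250 bases before each RefSeq start. The upper panel is a histogram over all 32851 promoters and the lower panel gives the 14 starts of the 8 genes, where Tet2 with 51 and Dnmt3a starts 1 and 2 with 38 and 40 lie far to the right and Dnmt1 start 1 and Dnmt3l lie at 2 to 5.

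All 8 loci carried peaks, from 3 at Tdg to 21 at Dnmt3a. Over the 655.6 kb of the loci there were 12.4 peaks per 100 kb (exact 95% Poisson interval 9.81 to 15.4), beside 3.0 per 100 kb on the 19 autosomes, a ratio of 4.12 (3.27 to 5.12). Peaks covered 14.1% of the loci and 3.24% of the autosomes. These intervals cover counting error within 1 library and take peaks as independent, which is too narrow where peaks cluster. No other gene could be placed on mm9 here, so it is not known how these loci compare with genes in general.

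Dnmt3l had the highest density, 19.1 peaks per 100 kb (8 peaks, 8.26 to 37.7). Dnmt3a followed at 16.3 (21 peaks, 10.1 to 25), then Dnmt1 at 15.1 (11 peaks, 7.54 to 27.0) and Dnmt3b at 13.7 (8 peaks, 5.91 to 27.0). The Tet genes came next, with 10.5 at Tet1 (10 peaks, 5.02 to 19.3), 10.3 at Tet3 (12 peaks, 5.31 to 17.9) and 7.94 at Tet2 (8 peaks, 3.43 to 15.6). Tdg had 7.32 (3 peaks, 1.51 to 21.4). All 8 intervals hold the values from 10.1 to 15.6, so the order of the loci is not resolved beyond counting error. The 4 Dnmt loci together had 15.9 peaks per 100 kb (11.7 to 21.1) and the 3 Tet loci 9.58 (6.46 to 13.7). These intervals overlap in part, which is not a test of the difference, and none was made.

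Densities around the loci ranged more widely than those of the loci, from 1.00 to 14.3 peaks per 100 kb. In the megabase around each locus, without the locus itself, the density was 14.3 peaks per 100 kb at Dnmt1 and 9.17 at Tet3, close to the 15.1 and 10.3 of the loci. Around Tet2 it was 1.00, with 9 peaks in the whole surrounding stretch against 8 on the locus. Tet2 thus stood as a cluster in a sparse region, while Dnmt1 and Tet3 lay in regions with a mean density close to their own. The lower bound of the interval lay above the density of the gene's own chromosome at 7 loci, all but Tdg, and above that of the surrounding megabase at 3, which were Tet2, Dnmt3a and Dnmt3l. Among all autosomal windows of the same length laid end to end, 3.03% had at least the 21 peaks of Dnmt3a and 3.27% at least the 8 of Dnmt3l. That share was 4.63% for Dnmt1, 6.33% for Dnmt3b, 9.18% for Tet3 and 9.31% for Tet1. It was 13.8% for Tet2 and 17.7% for Tdg, so windows with as many peaks were not rare.

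**Figure D2:**
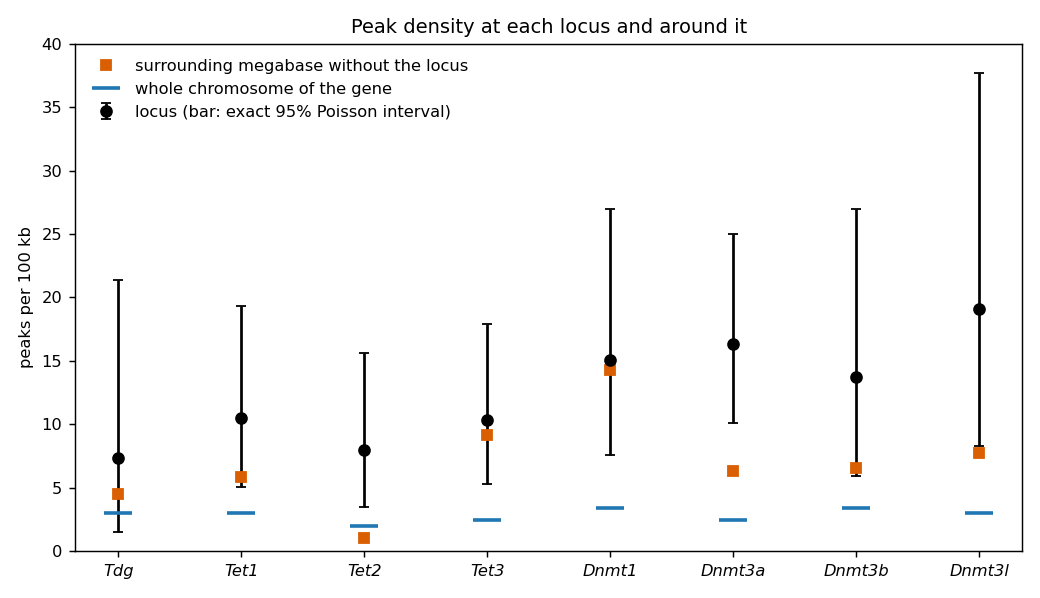
Peaks per 100 kb (y axis) at each locus, with exact 95% Poisson intervals as bars, in the surrounding megabase without the locus (squares) and on the whole chromosome (dashes). Tet2 has 7.94 in a megabase with 1.00, whereas Dnmt1 has 15.1 in a megabase with 14.3.

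The member peaks were of ordinary strength for the list. The score, which the authors deposited with each peak, had a median of 562.6 and a range of 273.80 to 3100 in the members, beside a median of 552.8 over all peaks. The median width was 856 bp beside 850 bp. Reads per peak, recovered from score and width, had a median of 39 over the 78 members where this was possible, beside 42, and the median density was 49.1 reads per kb beside 49.5. In total 41 of the 81 members had a score at or above the median of the list. Wide peaks made up 13.6% of the members, 11 above 2 kb, beside 9.19% of the list. A score too high for reads to be recovered was found for 3 members, or 3.70%, beside 2.78% of the list. These 3 peaks were at Tet1, Dnmt1 and Dnmt3b, and all had the score of 3100 that 1649 peaks share, so the score does not rank them.

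**Figure D3:**
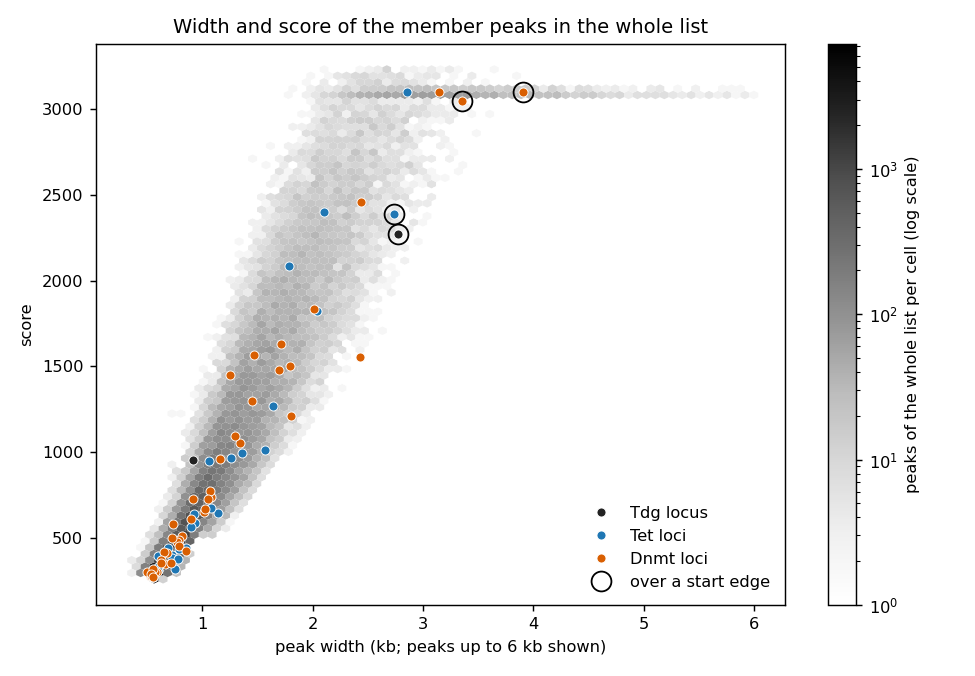
Score (y axis) against peak width in kb (x axis) for the whole list in grey and for the 81 member peaks in colour by gene family. The members follow the list, and the 4 peaks over a start edge (circled) lie among its widest, at 2740 to 3905 bp.

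Within the loci peaks covered more of the sequence near the start edge of the span. The start edge is set by the rule, was not checked against mm9 gene starts and need not be the start used in these cells, so all counts at start edges refer to the spans. Of the first 5 kb of the spans 40.1% was covered by peaks, of the 10 kb before the start edge 18.3%, of the rest of the spans 12% and of the 10 kb past the far edge 8.72%. By number of peaks the difference was smaller, with 20 per 100 kb (8.63 to 39.4) in the first 5 kb and 11.9 (8.90 to 15.5) in the rest of the span, and the intervals overlap. The pooled shares did not hold for each locus. At Dnmt1 0 of 5000 bp were covered in the first 5 kb and 8170 of 47801 bp in the rest. At Dnmt3l it was 1257 of 5000 bp beside 4618 of 16801 bp, also a smaller share. At the other loci the share was larger in the first 5 kb. At Tet1, though, the 10 kb before the edge had the largest, 5178 of 10000 bp beside 1065 of 5000 bp. The start edge itself lay under a peak at 4 of 8 loci, Tdg, Tet2, Dnmt3a and Dnmt3b, and the far edge at 0 of 8. Under a peak lay 3.24% of autosomal bases and 14.1% of the bases of the loci. Within 1 kb of a peak were 6 of 8 start edges and 1 of 8 far edges, beside 8.18% of autosomal bases. That share was not computed for the loci, which hold more peaks per kb than the autosomes. The 2 further start edges within 1 kb were those of Tet1 and Tet3, which had a narrow peak 947 and 979 bp away. Dnmt3l missed the limit with 1057 bp, and Dnmt1 was farthest from a peak with 4720 bp. All 4 peaks over a start edge were wider than 2 kb, as were 7 of the other members. A wide peak covers more bases, so peaks picked for covering an edge tend to be wide.

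**Figure D4:**
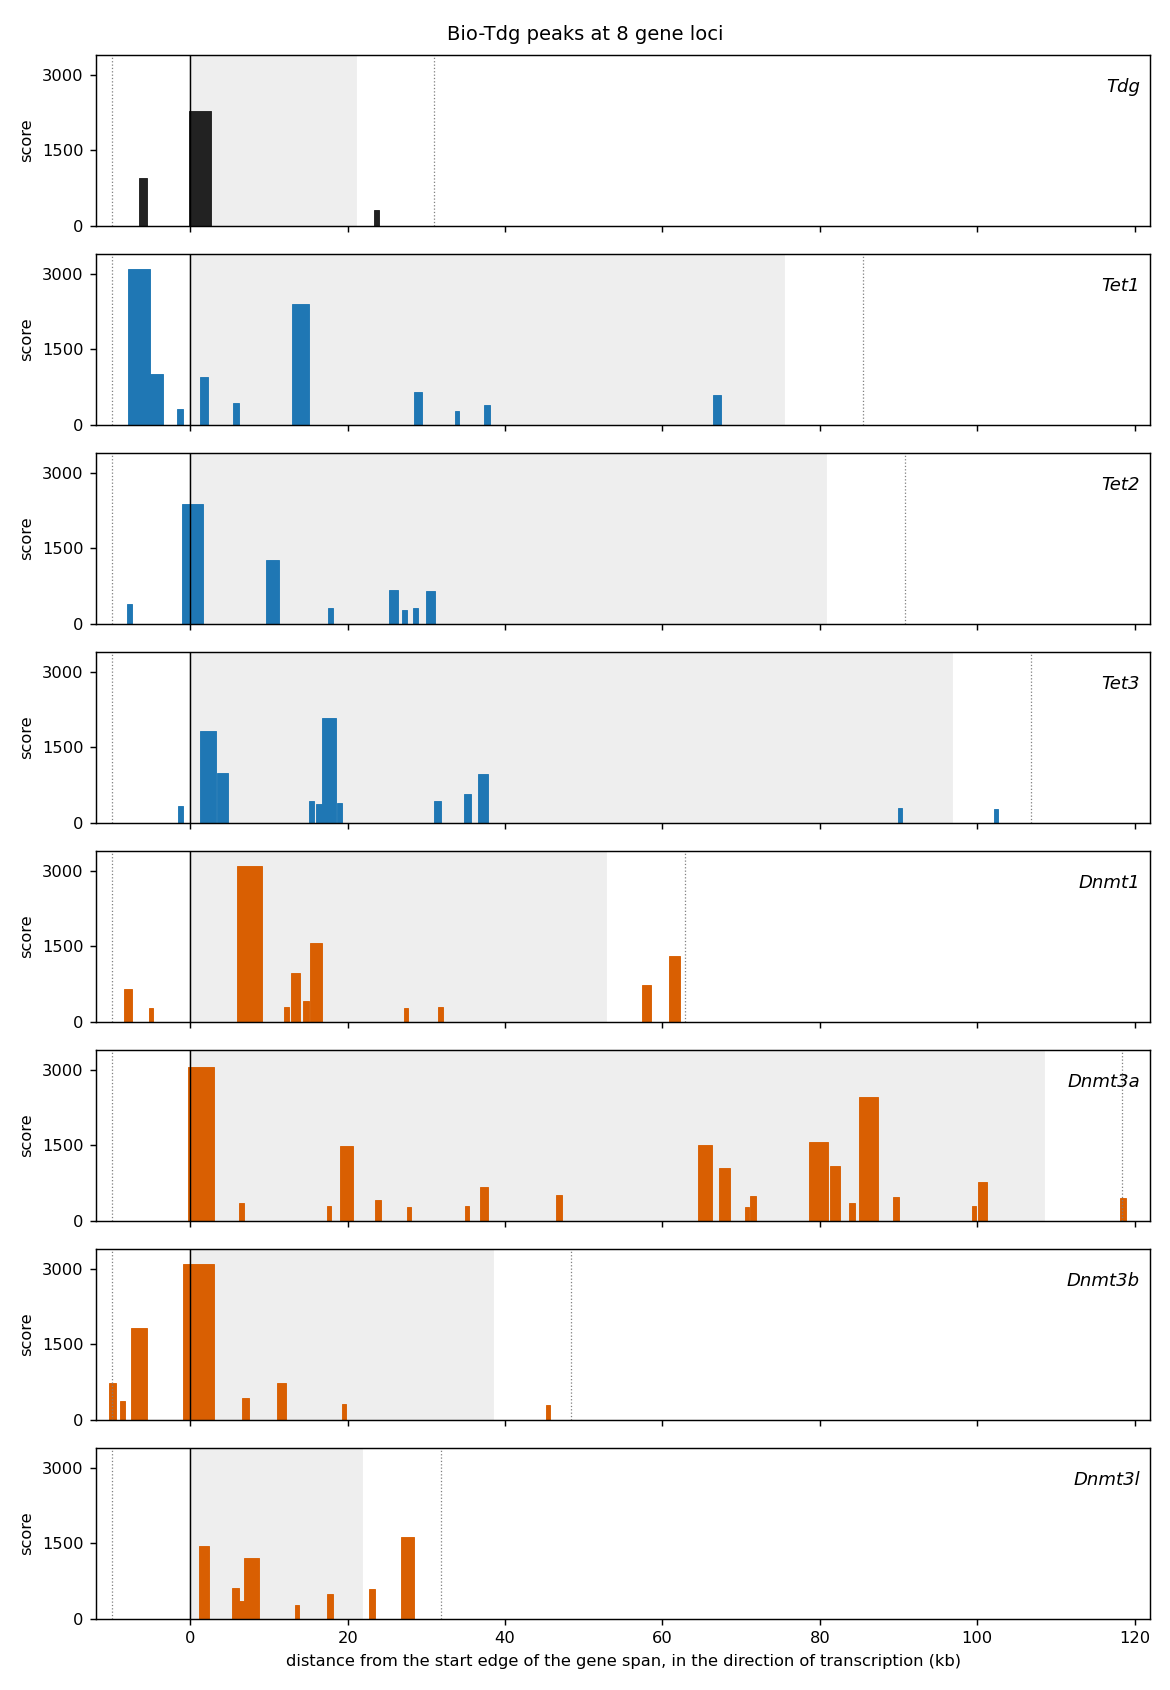
Peaks at the 8 loci, drawn to scale along the distance from the start edge in kb in the direction of transcription (x axis), with the score as height (y axis), the gene span in grey and the 10 kb flanks between dotted lines. Tall peaks stand over the start edge at Tdg, Tet2, Dnmt3a and Dnmt3b, before it at Tet1 and inside the span at Dnmt1.

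The Tdg locus (span chr10:82092000-82113000) had the fewest peaks. The peak over its start edge, chr10:82091795-82094570, reached from 0.20 kb before the edge to 2.57 kb into the gene. It was 2776 bp wide with a score of 2273.66 and 171 reads, or 61.6 reads per kb, and 92.4% of the list had a lower score. This was both the widest and the highest-scoring peak of the locus, and it lay at the gene of the very protein that was pulled down. A second peak of 921 bp and 67 reads lay 5.56 to 6.48 kb before the edge, on the side of the neighbouring gene 1190007I07Rik. The third, with 24 reads, lay 2.37 kb past the far edge, on the side of Glt8d2. Past the first 5 kb, the remaining 16001 bp of the span had no peak. RefSeq lists pseudogenes named Tdg-ps and Tdg-ps2, and also Dnmt3a-ps1, Dnmt3b-ps1 and Dnmt3l-ps1. For all of these genes, how reads matching several places were treated is not given in the sources used here.

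Tet1 and Tet2 are the main Tet enzymes of embryonic stem cells, and Tet1 is known to have more than one start. At Tet1 (span chr10:62267300-62342800) the strongest signal lay outside the span. The peak chr10:62347892-62350744 stood 5.09 to 7.94 kb before the start edge, was 2853 bp wide and had the score of 3100. A second one of 1573 bp and 80 reads followed 7 bp away, so the pair covered most of the stretch from 3.51 to 7.94 kb before the edge. The start edge itself lay between peaks, 947 bp from a narrow one of 27 reads and 35.9 reads per kb, the lowest density of all members with reads. Inside the gene the peak chr10:62327723-62329824, 12.98 kb from the edge, had 167 reads over 2102 bp. At 79.5 reads per kb it was denser than the start-edge peak of Tdg. The other 6 peaks inside the Tet1 span had 22 to 69 reads. Whether the RefSeq start of Tet1 lies at the span edge or under the strong peak before it was not determined on mm9.

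At Tet2 (span chr3:133126600-133207400) the widest and highest-scoring peak lay over the start edge. It was chr3:133205744-133208483, from 1.08 kb before the edge to 1.66 kb into the gene, with 177 reads over 2740 bp and a score of 2388.47. The window before the RefSeq start of this gene is the one with 51 CG and the tandem repeat. A second peak of 96 reads began 9.66 kb into the gene. The remaining peaks had 22 to 53 reads, and 3 of them formed a run from 25.30 to 28.90 kb. The far part of the gene was empty, since the far edge lay 49697 bp from the nearest peak.

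Tet3 (span chr6:83312300-83409100), the Tet enzyme known best from the oocyte and zygote, had its peaks in several groups. One lay just inside the span, with chr6:83405847-83407885 at 1.22 to 3.25 kb as the widest peak of the locus (2039 bp, 134 reads) and a second of 76 reads behind it. Another was a run of 4 peaks from 15.04 to 19.23 kb, of which peaks covered 92.2%. It contained the highest-scoring peak, chr6:83390545-83392331, with a score of 2085.90, 144 reads and 80.6 reads per kb, the highest density among the members with reads. The peak nearest to the start edge, chr6:83410080-83410679, was weak, with 26 reads, and lay 0.98 to 1.58 kb before it. As for Tet1, the place of the RefSeq start of Tet3 relative to the span edge and to these groups was not determined on mm9. A further group of 3 peaks, of 73, 44 and 36 reads, lay 30.99 to 37.81 kb into the gene, and 2 peaks of 23 and 22 reads lay before and past the far edge, at 89.94 and 102.10 kb.

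Dnmt1 (span chr9:20711600-20764400) was the locus with no peak near its start edge. The nearest, chr9:20769121-20769645, lay 4.72 kb before it and had 22 reads. The widest peak, chr9:20755264-20758410, began 5.99 kb and ended 9.14 kb into the gene, was 3147 bp wide and had the score of 3100. On GRCm38.p6 the starts 2 and 3 of Dnmt1 lie 6.91 and 7.26 kb past start 1. If start 1 were at the span edge, both would fall in the range of that peak, but this could not be checked on mm9. Dnmt1 is known to be transcribed from a start used in oocytes besides the one used in other cells. Start 1 had only 2 CG in the window shown above, and the window of start 3 had 26. Next to the strong peak came a run of 4 peaks from 11.89 to 16.70 kb with 237 reads together, 110 of them in the peak farthest into the gene. Deeper in the gene lay only 2 weak peaks, of 22 and 24 reads. Past the far edge, on the side of Eif3g, lay 2 peaks of 57 and 95 reads.

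Dnmt3a (span chr12:3806000-3914450) had the most peaks, 20 on the span and 1 across the outer border of the flank. The start-edge peak chr12:3805715-3809063 was the widest and highest-scoring of the locus. It reached from 0.28 kb before the edge to 3.06 kb into the gene, with 3349 bp, a score of 3047.92 and 224 reads, the most that could be recovered for a member. The next in score was chr12:3890912-3893353, from 84.91 to 87.35 kb into the gene, with a score of 2457.93 and 176 reads. Dnmt3a is known to make a short form in embryonic stem cells from a start inside the gene. On GRCm38.p6 start 3 lies 84.76 kb past start 1. If start 1 were at the span edge, start 3 would fall just short of the inner peak, which begins at 84.91 kb. With start 1 deeper in the start-edge peak, start 3 could fall inside the inner peak, and neither was checked on mm9. The window of start 3, shown above, had 15 CG where start 1 had 38. Peaks of 109 to 124 reads lay 18.97, 64.55 and 78.57 kb into the gene, and the other 15 peaks on the span had 22 to 81 reads.

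Dnmt3b (span chr2:153475100-153513500) carried the widest member peak of all. It was chr2:153474215-153478119, from 0.89 kb before the start edge to 3.02 kb into the gene, 3905 bp wide with the score of 3100, and 99.4% of the list was narrower. A run of 3 peaks with 217 reads together lay 5.47 to 10.35 kb before the edge, of which the one nearest to the gene had 134 reads over 2014 bp. The run crosses the outer border of the flank and lies on the side of Commd7. Beyond the start the gene held only 3 more peaks, of 35, 56 and 25 reads, and a peak of 23 reads lay past its far edge.

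Dnmt3l (span chr10:77504600-77526400) had no peak above 2 kb, where each of the other Dnmt loci had at least 1. The peak nearest to the start edge, chr10:77505657-77506913, lay 1.06 to 2.31 kb into the gene, with 100 reads over 1257 bp and 79.6 reads per kb. The widest, chr10:77511470-77513271, lay at 6.87 to 8.67 kb with 95 reads over 1802 bp. It closed a run of 3 peaks from 5.24 kb on that covered 97.1% of its stretch. On GRCm38.p6 start 2 of Dnmt3l lies 7.55 kb and start 3 13.05 kb past start 1. A weak peak of 22 reads began 13.24 kb from the edge. Whether start 1 lies at the span edge was not checked on mm9, so the starts could not be placed against these peaks. The highest score of the locus, 1633.53, was that of chr10:77531329-77533046, 4.93 to 6.65 kb past the far edge on the side of Icosl, with 118 reads. All 3 windows before the Dnmt3l starts were poor in CG, as given above.

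Neighbouring peaks within the loci lay close together. The median gap between neighbours was 3129 bp, beside 6083 bp on the autosomes, and 20 of 73 gaps were under 1 kb. That is 27.4%, beside 18.9% on the autosomes. Gaps in the loci were taken only between peaks of the same locus, so no gap could be longer than the locus. The loci also hold 4.12 times the peak density of the autosomes, which by itself makes gaps shorter. Whether peaks lay closer than that density gives was not tested. In 5 runs, at Tet2, Tet3, Dnmt1, Dnmt3b and Dnmt3l, 3 or more peaks followed each other at less than 1 kb. At Tet1 and at Tet3 the smallest gap was 7 bp, so the number of peaks there depends on where the caller divided one stretch of signal.

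The border of the loci divided some signal as well. Between 10 and 20 kb from the spans lay 21 further peaks, 8 of them at Dnmt1 and 6 at Tet1. The strongest there was a peak of 2606 bp and 205 reads that began 15.18 kb before the Dnmt1 start edge, on the side of S1pr2. Nearest to the border on its outer side were peaks of 25 reads at 10.93 kb past the far edge of Tet1 and of 22 reads at 11.16 kb past that of Dnmt3l. Across it, and so members, lay the peak of 54 reads before Dnmt3b and that of 36 reads past the far edge of Dnmt3a.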

How the data were processed

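The deposited file gives 1 row per peak with position and score. Per the labels, the ChIP tag sets Bio-Tdg apart from the BirA mock, with 1 library each. Without giving roles, the submitters' processing notes list mm9, MACS 1.4.1, Bowtie 0.12.7 and CASAVA 1.8. Not given in the sources used here are the threshold, control, read filters and depth. The deposited score is the authors' own, and MACS of that series writes -10 times the log10 of p there. Positions count from 1. Gene spans are those of the rule that defines the loci, and each gene's direction was checked against RefSeq.

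Reads were recovered as the whole number whose Poisson tail, for a mean of the width times one fitted rate (1.129 reads per kb), gives the score within 0.01. This held for 70929 peaks, not for 2032 with p below the normal double-precision range and 9 of at most 368 bp. As one rate fitted those 70929 peaks, their scores hold no adjustment for background that differs from place to place. Reads are 1 higher throughout if the caller counted ties. On 2999 peaks simulated from this same model 100% were recovered. This checks the recovery step only, not whether the model holds for the deposited scores. The simulated reads also stopped short of the highest recovered ones.

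Autosome length ran from first to last peak. Members and lists were chosen with earlier results of these data known. Named were all 8 genes and, of their peaks, those nearest to the start edge, the widest and the highest-scoring; others were chosen after seeing their values. Genes of like pattern and pathway genes could not be placed, as no mm9 annotation was used here. The RefSeq gene table (GRCm38.p6) served for names of neighbours and pseudogenes only. With 1 library no test was made. Python 3.11.15, numpy 2.4.6, pandas 2.3.3, scipy 1.17.1 and matplotlib 3.10.9 were used.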

Additional observations from a re-analysis of the deposited data

How the results depend on the processing

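With peaks scoring 500 or more alone, the number of member peaks was 42, which follows from the threshold itself. It ran from 61 with peaks less than 1 kb apart merged to 102 with 20 kb flanks. The ratio of peak density to the autosomes, 4.12, ran from 3.79 without the Dnmt3a locus to 4.48 with the chromosomes of the 8 genes as background, and was 4.34 in bases covered. The start edges near a peak numbered 6 of 8 at 1 kb, 4 at 0.5 kb, 4 with peaks scoring 500 or more, and 7 at 2 kb. Limits of 0 and 10 kb, added after seeing the data, gave 4 and 8. The median score of the members stayed between 513.1 and 588.2 when each locus or the flanks were left out. The median number of CG before the member starts was 16, and 20 in the window that also holds the 50 bases after the start. No paired analysis was possible because a single library, Bio-Tdg, was analysed. A stretch without a peak does not show missing binding, since the depth is not known and the fewest recovered reads in a peak of the list were 21.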
